A study of Mus musculus with 18 samples.

Results

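Spleens of mice kept on a high fat diet (HFD) and dosed with AOS were set against spleens of mice on the same diet that received AOS-FMT instead. AOS is read here as alginate oligosaccharide, a short sugar chain cut from a polysaccharide of brown seaweed, and FMT as faecal microbiota transplantation. The members are the 12631 gene rows, of 19326 in the expression table, whose mean reached 1 FPKM in either group. FPKM is the number of fragments scaled to transcript length and to library size, so levels of different genes can be compared per length. Of the members, 12254 reached 1 FPKM in both groups, 190 with AOS dosing only and 187 with AOS-FMT only. At the edge of that threshold, *Catsper2* entered at 1 against 0.890 FPKM (AOS dosing against AOS-FMT) and *Hoxb6* at 0.560 against 1, while *Angptl6* stayed out at 0.797 against 0.997 and *Apol10b* at 0.997 against 0.960.

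All mice were of the ICR stock and aged 10 weeks. The study holds 18 spleen RNA libraries, 3 in each of 6 groups, and 6 of them enter this comparison. Both groups shared the high fat diet. The label of 1 group adds AOS at 10 mg/kg, and that of the other adds FMT with the same dose named beside it; donors, route, schedule, diet composition and sex are not described in the labels. The other groups, used here for reference, were control mice, AOS at 10 mg/kg without the diet, the diet alone, and the diet with control-FMT. Whether the 3 libraries of each group are 3 animals is not said in the labels, so p-values measure the spread between these samples, which may be technical.

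The comparison bears on whether giving the compound and giving the transplanted microbiota leave the spleen in the same state. AOS is largely left undigested by the host and can be fermented by gut bacteria, and microbial products reach the spleen through the blood. The spleen filters ageing red cells in its red pulp, where macrophages recycle iron, and holds B and T lymphocytes in its white pulp. Plasma cells there secrete antibody and carry an enlarged endoplasmic reticulum (ER), maintained by the transcription factor XBP1. Type I interferon, made on sensing of nucleic acids, acts through a receptor and its signalling factors on a shared set of antiviral genes. Heat shock proteins are chaperones induced by HSF1 when proteins misfold, and clock genes cycle with the time of day in most tissues.

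Promoter sequences of 5 genes are shown because they hold letters of elements known from 3 of the pathways described here. They come from RefSeq on build GRCm38.p6 and cover the 250 bases before the annotated start, written 5′ to 3′ on the strand of the gene. Capitals mark the interferon-stimulated response element (ISRE, searched as TTTC repeated after any 2 bases) in *Ifit3* and *Ifit1*, the heat shock element (HSE, searched as GAA, TTC and GAA with any 2 bases between them) in *Hspe1*, and the ER stress response element (ERSE, CCAAT followed after any 9 bases by CCACG) in *Derl3* and *Creld2*. Both strands were searched, and where matches overlap the capitals span them.
Ifit3, chr19:34583279-34583528, plus strand: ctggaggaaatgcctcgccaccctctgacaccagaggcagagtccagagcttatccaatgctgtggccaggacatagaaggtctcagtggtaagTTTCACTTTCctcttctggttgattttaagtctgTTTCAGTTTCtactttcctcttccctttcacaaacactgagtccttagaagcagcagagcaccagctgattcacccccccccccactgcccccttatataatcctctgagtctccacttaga
Ifit1, chr19:34640639-34640888, plus strand: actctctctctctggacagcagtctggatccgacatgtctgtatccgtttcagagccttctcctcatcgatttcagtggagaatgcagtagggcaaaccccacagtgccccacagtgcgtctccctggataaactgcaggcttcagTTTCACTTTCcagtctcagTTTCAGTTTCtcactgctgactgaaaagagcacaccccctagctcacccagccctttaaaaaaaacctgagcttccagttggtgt
Hspe1, chr1:55087898-55088147, plus strand: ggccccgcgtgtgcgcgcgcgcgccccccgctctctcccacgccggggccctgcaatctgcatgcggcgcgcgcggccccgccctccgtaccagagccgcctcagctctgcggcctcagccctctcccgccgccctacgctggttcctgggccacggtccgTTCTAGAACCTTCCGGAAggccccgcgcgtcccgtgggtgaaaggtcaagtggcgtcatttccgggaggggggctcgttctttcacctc
Derl3, chr10:75893148-75893397, plus strand: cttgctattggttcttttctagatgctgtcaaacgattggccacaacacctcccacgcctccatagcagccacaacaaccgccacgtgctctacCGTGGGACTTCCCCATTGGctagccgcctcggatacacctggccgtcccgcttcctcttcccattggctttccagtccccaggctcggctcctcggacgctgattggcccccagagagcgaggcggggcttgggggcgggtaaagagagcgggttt
Creld2, chr15:88819396-88819645, plus strand: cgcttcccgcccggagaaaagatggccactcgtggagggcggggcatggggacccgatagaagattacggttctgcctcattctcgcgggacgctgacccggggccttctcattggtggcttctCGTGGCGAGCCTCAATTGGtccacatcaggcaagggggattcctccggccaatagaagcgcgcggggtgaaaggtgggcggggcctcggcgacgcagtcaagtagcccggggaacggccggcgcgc
The nearest match to the start lay 122 bases before it in *Ifit3*, 85 in *Ifit1*, 84 in *Hspe1*, 156 in *Derl3* and 126 in *Creld2*. Over 27025 genes with a promoter in the table, 3.46% held the ISRE, 0.514% the HSE and 0.13% the ERSE in the same window. The ISRE letters were found in 7 of the 15 type I interferon genes with an entry. The HSE letters were in 2 of 11 heat shock genes, *Hspd1* and *Hspe1*. These 2 genes overlap at their 5′ ends on opposite strands, and whether 1 stretch gave both matches was not checked. The ERSE letters were in 6 of 15 genes of the unfolded protein response and 2 of 10 plasma cell genes. The ISRE letters were also found in 2 of the 10 plasma cell genes, *Tnfrsf17* and *Txndc5*. These matches describe the letters in the windows and do not show that a factor was bound.

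Column totals of the 6 libraries lay between 627964 and 764684 FPKM, and 12241 to 12586 genes per library reached 1 FPKM. How many reads lie behind a value is not known. Haemoglobin transcripts took 28.1%, 19.9% and 12.6% of all FPKM with AOS dosing and 26.4%, 21.5% and 24.3% with AOS-FMT, and the groups overlapped (means 20.2 ± 7.72 and 24.1 ± 2.45 SD, n = 3, exact permutation test, two-sided, p = 0.6, smallest possible 0.1). Libraries of the same group correlated at 0.972 to 0.992 over the tested genes and libraries of different groups at 0.968 to 0.985. Transcripts of exocrine pancreas differed widely between libraries of both groups and are given beside the secretory genes. AOS-FMT replicate 2 also carried more of 9 liver genes than the other 5 libraries (474.9 against 73.3 to 111.3 FPKM summed) and more of 8 testis genes (15.7 against 0.45 to 4.29). In whole tissue, fewer cells of a type and less RNA per cell cannot be told apart.

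Of 12969 genes tested with limma over all 6 groups, 119 (0.918%) passed an adjusted p of 0.05. With AOS dosing 93 (0.717%) were higher and 26 (0.2%) were lower than with AOS-FMT. Among the higher genes were members of the interferon response, antibody-secreting cells, ER and Golgi machinery, macrophages, lysosomes and the clock. Several chaperones were among the lower genes. These groupings were named after the values were seen. The split depended on scaling, with 103 higher and 82 lower after scaling by median ratios and 85 higher and 46 lower after quantile normalization. Over all tested genes the median difference was 0.02 on the log2(FPKM + 1) scale, and 55.4% lay higher with AOS dosing. An unadjusted p under 0.05 was found for 1984 genes (15.3%), 1336 of them higher (10.3%) and 648 lower (5%).

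All 119 genes had groups that did not overlap, which held for 22.5% of all genes tested, 14.3% in the higher and 8.21% in the lower direction. Most of the called differences were small: the median size was 0.55 on the log2 scale, and 15 genes reached 1. The calls rested on each of several libraries. No gene passed without AOS dosing replicate 2, without AOS-FMT replicate 1 or without AOS-FMT replicate 2 (limma lowest adjusted p = 0.121, 0.129 and 0.0596, and 1416, 1425 and 1626 genes with an unadjusted p below 0.05). Without AOS-FMT replicate 3, 14 passed, without AOS dosing replicate 1, 23, and without AOS dosing replicate 3, 57. Libraries of the other groups, which enter through the shared spread, moved the count too: it was 36 without HFD replicate 2, 38 without control-FMT replicate 2, 42 without replicate 1 of AOS without the diet, 58 without control replicate 2, 71 without control-FMT replicate 3, 199 without control replicate 3 and 215 without control replicate 1. The 6 libraries fitted alone gave 177, of which 66 were among the 119. All 119 kept their direction and an unadjusted p under 0.05 in each of these fits, in the same libraries that chose them.

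**Figure D1:**
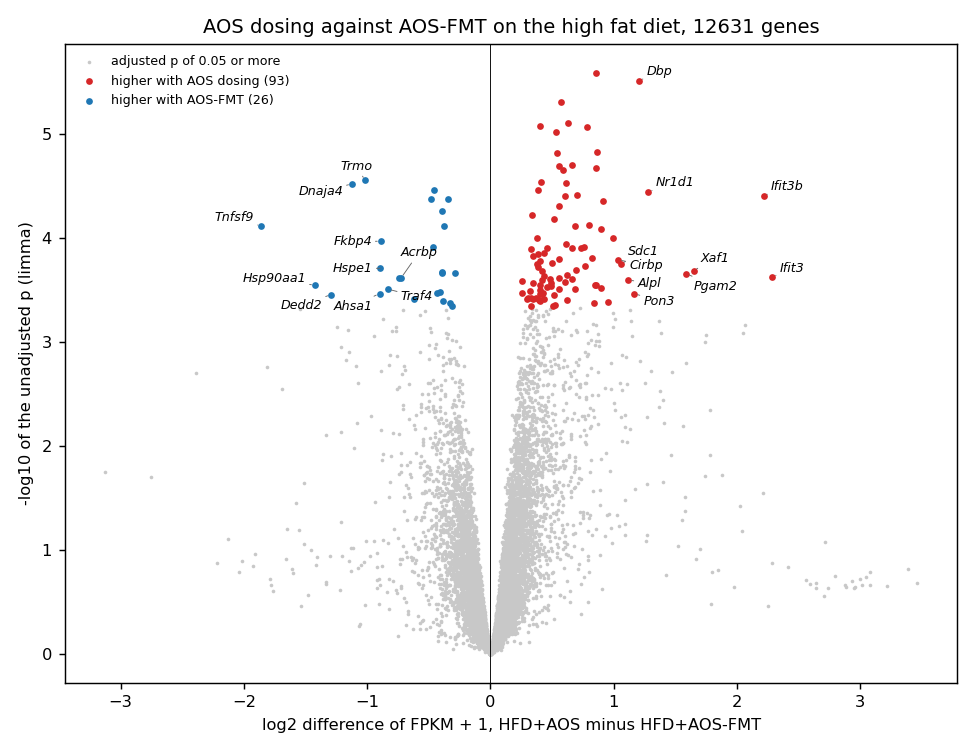
Difference between AOS dosing and AOS-FMT on the high fat diet for 12631 genes: log2 difference of FPKM + 1 on the x axis and −log10 of the unadjusted limma p on the y axis. Red points are the 93 genes called higher with AOS dosing and blue points the 26 called higher with AOS-FMT; the 10 largest of each are named, and the exocrine pancreas genes are among the grey points at the lower right.

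The largest called rises with AOS dosing came from the interferon response. *Ifit3* (chr19:34583531-34588731, plus strand, GRCm38), whose product restrains viral RNA translation together with other IFIT proteins, stood at 58.9, 30.7 and 39.2 FPKM with AOS dosing and at 8.46, 7.36 and 7.30 with AOS-FMT. The lowest AOS dosing library was 3.63 times the highest AOS-FMT library. The difference was 2.29 ± 0.467 (SE) on the log2 scale (limma adjusted p = 0.0442). Its near-identical neighbour *Ifit3b* (chr19:34607970-34613401) stood at 12.7, 8.25 and 9.56 against 1.08, 1.70 and 1.38 FPKM (2.22 ± 0.386, adjusted p = 0.022). Reads of the pair can be assigned to either copy, so the split between them is uncertain. *Xaf1*, an interferon-induced promoter of apoptosis, was at 58.4, 38.2 and 53.7 against 13.1, 16.8 and 15.5 FPKM, again without overlap (1.65 ± 0.336, adjusted p = 0.0441).

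All 20 measured genes of the type I interferon list lay higher with AOS dosing, by a median of 1.27 on the log2 scale beside 0.02 for all genes tested. Of these, *Ifit3* and *Xaf1* passed the test, 17 had an unadjusted p under 0.05 and 19 did not overlap between the groups. Higher with AOS dosing in these 2 ways were 10.3% and 14.3% of all genes tested. *Irf7*, the factor that amplifies interferon production, was at 215, 95.7 and 108.2 against 33.1, 25.9 and 34.1 FPKM, a difference of 2.05 (adjusted p = 0.0581). *Zbp1*, a sensor of nucleic acids in the Z conformation, was at 66.3, 52.4 and 46.9 against 24.1, 20.4 and 28.9 FPKM (1.14, adjusted p = 0.0543). *Ifit1*, which binds viral RNA caps, was at 18.1, 9.59 and 8.60 against 2.87, 2.45 and 2.86 FPKM (1.74, adjusted p = 0.063). In each of these the AOS dosing replicate 1 was the highest library. *Isg15*, a ubiquitin-like modifier, spread most within its group, at 276.9, 125.2 and 83.3 against 62.3, 53.3 and 74.4 FPKM (1.17, adjusted p = 0.246), and *Rsad2* (viperin) was the single list member whose groups overlapped, at 93.1, 64.3 and 38.5 against 39.3, 41.9 and 51.9 FPKM. *Mx1* and *Mx2*, from the same list, have no value here.

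Averaged over the list, the AOS dosing libraries stood at 5.48, 4.82 and 4.87 on the log2 scale and the AOS-FMT libraries at 3.80, 3.70 and 3.97. The AOS-FMT libraries were the lowest of all 18, and the AOS dosing libraries lay above every library of the control, HFD and control-FMT groups (4.03 to 4.65). The group given AOS without the diet varied widely, at 4.80, 4.06 and 5.90, the last being the highest of all 18 libraries. Against the diet alone the list median was 0.50 with AOS dosing and −0.67 with AOS-FMT, and against control-FMT it was 0.96 and −0.44. These pairs of values share the HFD or control-FMT libraries and are given side by side only. Markers of plasmacytoid dendritic cells, a main source of type I interferon, had a median difference of 0.17 with 0 of 6 past the test (1 at an unadjusted p under 0.05), and their list means overlapped at 5.22, 4.85 and 5.13 against 4.86, 4.59 and 5.05. Their part in the interferon difference was not tested.

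Outside the type I list, genes with related roles lay the same way with smaller differences. The interferon gamma response had 15 of 16 members higher (median 0.32), none past the test and 7 at an unadjusted p under 0.05. *Gbp4*, a guanylate-binding protein, differed by 0.50 (adjusted p = 0.0793) and *Gbp3* by 0.45 (adjusted p = 0.155). MHC class I genes had a median of 0.23 with 0 of 9 past the test (4 at an unadjusted p under 0.05), the peptide transporter gene *Tap1* differing by 0.46 (adjusted p = 0.152). *Pml*, which forms nuclear bodies and is induced by interferon, rose to 80.3, 75.3 and 79.3 against 52.7, 49.3 and 57.3 FPKM (0.55, adjusted p = 0.0414). *Tnfsf10*, the death ligand TRAIL, rose as well, at 4.47, 4.26 and 4.16 against 2.22, 2.26 and 2.59 FPKM (0.66, adjusted p = 0.0369). Among microbial sensors 11 of 12 lay higher (median 0.17), none past the test and 5 at an unadjusted p under 0.05, *Tlr7*, the receptor for single-stranded RNA, being at 20.9, 16.7 and 21.6 against 9.35, 9.35 and 12.4 FPKM (adjusted p = 0.0974).

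**Figure D2:**
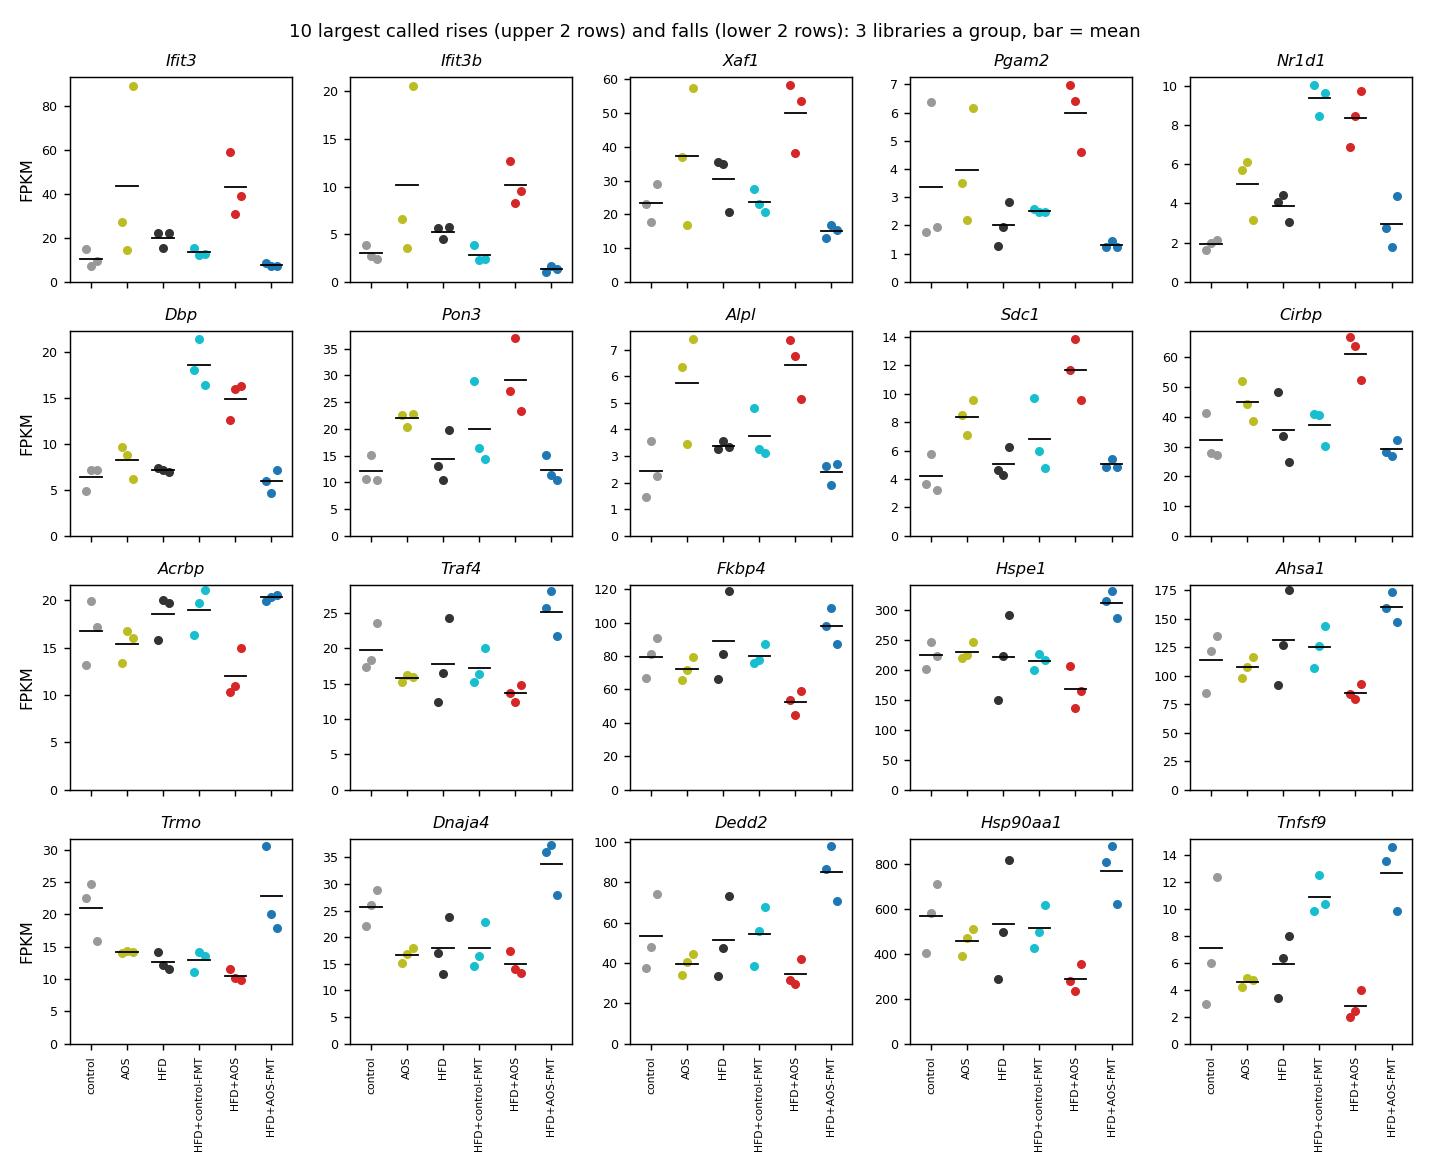
FPKM of the 10 largest called rises (upper rows) and 10 largest called falls (lower rows) in each of the 18 libraries, by group on the x axis, with a bar at each group mean; y axes start at 0. In every panel the 3 red points (AOS dosing) and the 3 blue points (AOS-FMT) do not overlap, which the choice of genes required, and for *Nr1d1* and *Dbp* the control-FMT points lie with the AOS dosing points.

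Genes of antibody-secreting cells formed the second group that was higher with AOS dosing. All 11 measured plasma cell genes were above AOS-FMT, with a median difference of 1.05 on the log2 scale, all 11 without overlap and at an unadjusted p under 0.05, and *Prdm1*, *Txndc5*, *Sdc1* and *Xbp1* passed the test. In this direction 14.3% of all genes tested did not overlap and 10.3% had an unadjusted p under 0.05. *Sdc1* (CD138, the surface proteoglycan by which plasma cells are recognised) was at 11.7, 13.9 and 9.54 against 4.83, 5.42 and 4.88 FPKM (1.06 ± 0.216, adjusted p = 0.0426). *Prdm1*, which codes for Blimp-1, the factor that sets plasma cell identity, was at 5.40, 6.17 and 5.03 against 1.88, 2.40 and 2.57 FPKM (0.99, adjusted p = 0.0354). The lowest AOS dosing library was 1.76 times the highest AOS-FMT library for *Sdc1* and 1.96 times for *Prdm1*. *Xbp1* was at 113, 134.2 and 89.8 against 56.5, 61.6 and 52.6 FPKM (0.95, adjusted p = 0.0478). *Txndc5*, an ER disulfide isomerase, was at 169.7, 187.6 and 138.2 against 93.8, 87.8 and 95.6 FPKM (0.82, adjusted p = 0.0414).

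The most abundant plasma cell transcripts showed the same order without passing the test. *Jchain*, the joining chain of IgA and IgM, was at 1196, 1728 and 1009 FPKM with AOS dosing against 604.6, 481.9 and 524.9 (1.25, adjusted p = 0.0879). *Mzb1*, a chaperone of IgM assembly, was at 508.9, 658 and 365.1 against 252.3, 227.7 and 238.5 FPKM (1.05, adjusted p = 0.0879). *Derl3* and *Creld2*, whose promoters with the ERSE are shown above, were at 34.0, 41.5 and 24.6 against 16.6, 13.5 and 14.5 FPKM and at 86.7, 77.97 and 46.6 against 43.2, 41.2 and 38.3 FPKM. Within the AOS dosing group replicate 3 was the lowest in each of these 4 genes. By contrast, B cell markers had a median difference of −0.06 and germinal centre genes one of −0.08, with 0 of 12 and 0 of 9 past the test (0 and 1 at an unadjusted p under 0.05). *Tnfrsf17* (BCMA), the receptor of plasma cells for APRIL, differed by 1.15 (adjusted p = 0.0587), whereas *Tnfrsf13c*, the BAFF receptor of resting B cells, differed by −0.41 (adjusted p = 0.414).

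Genes for the machinery of the secretory pathway mostly lay higher with AOS dosing too. A list of 34 genes for ER translocation, signal peptide cleavage, N-glycosylation and export, added after the data were seen, had 32 members higher (median 0.27), of which *Tram2*, *Rrbp1*, *Sec24d* and *Ddost* rose, while *Sec11a* fell. *Tram2*, a protein of the translocation channel, was at 5.07, 6.29 and 5.81 against 2.38, 3.07 and 2.64 FPKM (0.86, adjusted p = 0.022). *Rrbp1*, the ribosome receptor of the rough ER, was at 60.7, 64.7 and 58.1 against 40.4, 41.5 and 41.8 FPKM (0.56, adjusted p = 0.0235). *Sec11a*, a catalytic subunit of signal peptidase, was at 55.4, 56.8 and 58.7 against 68.8, 73.4 and 66.7 FPKM (−0.28, adjusted p = 0.0441), and its paralog *Sec11c* lay the other way (0.53, adjusted p = 0.122).

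Further called genes of ER and Golgi function, singled out after their values were seen, also rose. *Ern1*, the ER stress sensor IRE1 that splices *Xbp1* mRNA, was at 5.69, 7.09 and 7.73 against 3.72, 4.24 and 3.82 FPKM (0.66, adjusted p = 0.0442). *Creb3l2*, a transcription factor released from the ER membrane by cleavage, was at 9.45, 14.6 and 9.63 against 5.04, 5.98 and 5.34 FPKM (0.90, adjusted p = 0.0452). *H13*, the signal peptide peptidase, was at 126.4, 146.98 and 94.96 against 70.8, 65.3 and 64.5 FPKM (0.85, adjusted p = 0.0448). *Edem2* (0.69), which trims mannose on misfolded glycoproteins, *Ergic1* (0.71), of the ER-Golgi intermediate compartment, *Mgat1* (0.40), which starts complex N-glycans, and *Gorasp2* (0.33), a Golgi stacking protein, had smaller rises. *Vcp*, the ATPase that extracts proteins from the ER membrane for degradation, was at 137.5, 140.7 and 134.6 against 111.5, 107.5 and 110.9 FPKM (0.32, adjusted p = 0.0452).

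Genes of the ER stress response were described as a list of their own. In the unfolded protein response list 15 of 17 members lay higher (median 0.33), none passed the test and 9 had an unadjusted p under 0.05, 8 of them higher. *Edem1* was at 59.8, 75.4 and 49.96 against 41.6, 35.96 and 32.4 FPKM (0.72, adjusted p = 0.0899) and *Sel1l*, of ER-associated degradation, differed by 0.51 (adjusted p = 0.0879). *Hspa5* (BiP), the main ER chaperone, was at 289.4, 305.6 and 245.3 against 258.3, 289.8 and 238.1 FPKM, with overlapping groups. *Ddit3* (CHOP), the stress factor of the PERK branch, lay lower at 28.2, 30.2 and 29.0 against 41.9, 37.3 and 32.3 FPKM (−0.33, adjusted p = 0.076).

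Pancreatic transcripts moved with this group in part. The 17 exocrine pancreas genes, all above 0 in all 6 libraries, summed to 262.8, 21201 and 9365 FPKM with AOS dosing and to 69.4, 3873 and 319.7 with AOS-FMT. Their median difference was 2.95 on the log2 scale, none passed the test in limma or had an unadjusted p under 0.05, and the groups overlapped for all 17. In both groups replicate 2 had the largest pancreatic sum and the highest *Xbp1* (134.2 with AOS dosing and 61.6 with AOS-FMT). For *Txndc5*, replicate 2 was the highest with AOS dosing (187.6) and the lowest with AOS-FMT (87.8). AOS dosing replicate 1, with the smallest pancreatic sum of its group, had *Xbp1* at 113 and *Txndc5* at 169.7, both above every AOS-FMT library. The part of pancreatic RNA in the differences of the secretory genes was not tested.

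**Figure D3:**
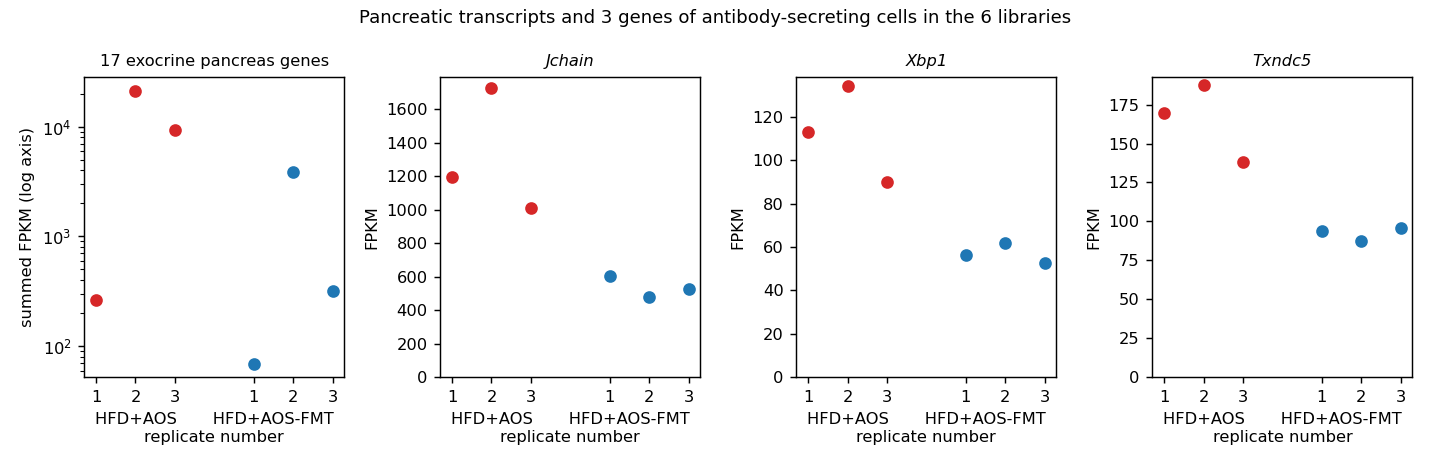
Summed FPKM of 17 exocrine pancreas genes (left panel, log axis) beside FPKM of *Jchain*, *Xbp1* and *Txndc5* (y axes from 0) in each of the 6 libraries, by replicate number within the 2 groups. The pancreatic sums overlap between the groups (69.4 to 3873 and 262.8 to 21201), while each of the 3 other genes is higher in all 3 AOS dosing libraries than in all 3 AOS-FMT libraries.

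In the reference groups, plasma cell list means were 5.81, 6.05 and 5.44 with AOS dosing and 4.84, 4.77 and 4.71 with AOS-FMT on the log2 scale. HFD libraries were at 4.69, 4.68 and 5.19, the last of them lying between the groups, and AOS without the diet at 5.64, 5.19 and 5.66. Control-FMT libraries ran from 4.77 to 5.67 and overlapped with both. Against the diet alone the list median was 0.88 with AOS dosing and −0.13 with AOS-FMT.

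Genes of cytotoxic cells lay higher with AOS dosing, and 1 passed the test. All 12 measured NK and cytotoxic genes lay higher (median 0.61), 10 without overlap and 8 at an unadjusted p under 0.05, and *Klrd1* passed. Over all genes tested the shares in this direction were 14.3% without overlap and 10.3% at an unadjusted p under 0.05. *Klrd1* (CD94), the partner of NKG2 receptors, was at 18.9, 18.1 and 19.2 against 13.02, 15.7 and 15.5 FPKM (0.33, adjusted p = 0.0466). *Ncr1* (NKp46), the activating receptor that marks NK cells, was at 12.5, 11.2 and 18.5 against 5.85, 6.98 and 6.22 FPKM (1.01, adjusted p = 0.0543). *Gzmb*, granzyme B, was at 3.82, 5.92 and 5.06 against 1.81, 1.61 and 1.79 FPKM, a 2.84-fold ratio of means (adjusted p = 0.0734). *Prf1*, perforin, differed little, at 5.38, 5.27 and 6.12 against 4.63, 5.69 and 4.40 FPKM. The AOS-FMT list means (3.16, 3.20 and 3.22) lay beside those of control-FMT (3.23 to 3.30), and the AOS dosing means (3.66, 3.75 and 3.98) within the span of HFD (3.41 to 3.97) but for the highest library.

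T cell markers lay lower with AOS dosing. Of 14 T cell genes 12 were lower with AOS dosing (median −0.21), none passed the test and 4 had an unadjusted p under 0.05, all lower. *Trat1*, an adaptor that stabilises the T cell receptor, was at 5.94, 7.59 and 8.44 against 11.7, 13.5 and 13.8 FPKM (−0.76, adjusted p = 0.0916), and *Cd4* was at 46.1, 50.1 and 50.3 against 61.6, 58.2 and 62.5 FPKM (adjusted p = 0.344). Both had groups without overlap. *Cd3e*, of the receptor complex, overlapped at 35.1, 39.6 and 33.5 against 34.7, 36.5 and 41.0 FPKM. Genes of T cell activation went the opposite way from the T cell markers, with 11 of 14 higher with AOS dosing (median 0.22), none past the test, and 4 higher and 1 lower at an unadjusted p under 0.05. Of these, *Cxcr3*, a chemokine receptor of type 1 effector cells, lay higher at 20.7, 26.7 and 18.3 against 11.5, 11.6 and 13.95 FPKM (0.76, adjusted p = 0.07), and *Cd40lg*, the helper ligand for B cells, lower at 5.41, 5.17 and 5.51 against 6.93, 9.39 and 8.10 FPKM (−0.51, adjusted p = 0.207).

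Macrophage genes lay higher with AOS dosing, and 1 of the red pulp list passed the test. All 14 red pulp macrophage genes lay higher (median 0.40), 7 at an unadjusted p under 0.05 and 5 without overlap. The shares of all genes tested were 10.3% and 14.3% in this direction. *Spic*, the factor that red pulp macrophages require, rose from 36.2, 45.4 and 40.9 FPKM with AOS-FMT to 66.3, 64.2 and 75.2 with AOS dosing (0.74, adjusted p = 0.0369). *Cd5l*, a scavenger protein secreted by macrophages, was at 34.5, 25.3 and 31.2 against 13.3, 13.8 and 12.5 FPKM (1.13, adjusted p = 0.0509). The iron genes of these cells overlapped between the groups: *Slc40a1* (ferroportin) was at 69.9, 75.9 and 99.4 against 45.7, 71.5 and 50.2 FPKM and *Hmox1*, which breaks down haem, at 172, 214.7 and 289.3 against 151.9, 221.6 and 165.1. Of the marginal zone macrophage genes, *Siglec1* (CD169) was at 9.18, 8.82 and 10.2 against 3.11, 4.62 and 4.41 FPKM (1.06, adjusted p = 0.123) and *Cd209b* (SIGN-R1) at 6.44, 5 and 11.3 against 2.00, 3.78 and 2.97 (1.09, adjusted p = 0.275). Among 7 monocyte genes 6 lay higher (median 0.47) and none passed the test (4 at an unadjusted p under 0.05), *Cx3cr1* differing by 0.47 (adjusted p = 0.0596). The list means for red pulp macrophages were 5.49, 5.43 and 5.74 against 4.88, 5.36 and 4.96, and those of HFD ran from 5.12 to 5.75, a span that holds all 3 AOS dosing means and 1 of the AOS-FMT means.

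Some lysosomal genes and some receptors found on myeloid cells were among the called rises, the receptors being picked after their values were seen. *Grn*, the lysosomal and secreted growth factor progranulin, had one of the smallest adjusted p-values of the comparison, at 94.9, 98.1 and 103.3 against 62.3, 65.7 and 62.5 FPKM (0.63 ± 0.096, adjusted p = 0.0179). In a list of 26 lysosomal genes added after the data were seen, 25 lay higher (median 0.16), and those that rose included *Grn*, *Galns*, *Pla2g15* and *Atp13a2*. *Sirpa*, the receptor by which macrophages and dendritic cells read the CD47 signal, was at 64.7, 69.6 and 76.2 against 46.98, 56.9 and 46.3 FPKM (0.48, adjusted p = 0.0442), and was the 1 called member of 10 conventional dendritic cell genes (median 0.16). *Entpd1* (CD39), which degrades extracellular ATP, was at 13.7, 16.7 and 13.7 against 6.69, 9.31 and 8.14 FPKM (0.80, adjusted p = 0.0296), and *Cmklr1*, the chemerin receptor, rose by 0.69 and the inhibitory receptor *Cd300a* by 0.42.

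Of the receptors for microbial metabolites, 7 of 14 were measured and *Hcar2* passed. *Hcar2* codes for a receptor of butyrate, beta-hydroxybutyrate and niacin, and was at 5.95, 4.92 and 5.44 FPKM with AOS dosing against 2.19, 3.47 and 2.83 with AOS-FMT (0.76 ± 0.149, adjusted p = 0.0369). Means of *Hcar2* were 3.49 ± 0.374 FPKM on the diet alone, 2.62 ± 0.339 with control-FMT and 2.87 ± 0.46 in controls (SD, n = 3), all nearer to AOS-FMT than to AOS dosing. *Ffar2*, a receptor of short-chain fatty acids, overlapped between the groups at 8.37, 8.67 and 9.34 against 6.14, 6.47 and 8.78 FPKM. *Ahr*, the aryl hydrocarbon receptor, differed by 0.09 (adjusted p = 0.788), and the list median was 0.09.

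Of the clock genes, *Dbp* and *Nr1d1* passed the test. *Dbp*, an output factor of the clock, was at 12.5, 15.9 and 16.2 FPKM with AOS dosing against 5.95, 4.68 and 7.12 with AOS-FMT (1.21 ± 0.17, adjusted p = 0.0179). *Nr1d1* (REV-ERB alpha), which represses *Arntl*, was at 6.90, 8.48 and 9.72 against 2.73, 1.79 and 4.37 FPKM (1.28 ± 0.224, adjusted p = 0.022). The groups of both genes were apart. The files do not say whether counting used strand, and each gene overlaps another on the opposite strand: *Thra*, which overlaps *Nr1d1* and whose difference changed sign with scaling, was at 7.72 to 10.5 against 8.17 to 9.71 FPKM, and *Sphk2*, which overlaps *Dbp*, at 14.7 to 17.2 against 16.8 to 17.8. Of 11 measured clock repressors and outputs, 8 lay higher (median 0.43) and 7 had an unadjusted p under 0.05, among them *Per3* at 3.18, 3.56 and 4.13 against 2.22, 2.21 and 2.39 FPKM (adjusted p = 0.0793). *Per2* and *Per1*, which repress the same activators, lay lower by 0.17 and 0.16. All 4 measured genes of the opposite arm were lower (median −0.25) with none past the test or at an unadjusted p under 0.05, *Arntl* (BMAL1) being at 6.66, 7.75 and 8.15 against 8.48, 10.4 and 9.21 FPKM.

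Levels of *Dbp* and *Nr1d1* also varied across the reference groups. *Dbp* averaged 18.6 ± 2.59 FPKM with control-FMT, 7.15 ± 0.21 on the diet alone and 6.39 ± 1.3 in controls (SD, n = 3), and it was the 1 gene (0.00771%) that passed between AOS-FMT and control-FMT. *Nr1d1* averaged 9.36 ± 0.809, 3.85 ± 0.728 and 1.91 ± 0.269 FPKM in these groups. So AOS-FMT lay near the diet alone for both genes, and AOS dosing near control-FMT. The hour at which each spleen was taken is not given in the labels.

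Transcripts of 2 cold-inducible RNA-binding proteins lay higher with AOS dosing. *Cirbp* was at 66.7, 63.6 and 52.5 against 28.3, 26.9 and 32.2 FPKM (1.04 ± 0.209, adjusted p = 0.0414), the AOS dosing libraries all lying above the AOS-FMT libraries. *Rbm3*, its relative, was at 453.7, 415.2 and 363 against 315.9, 247.3 and 298.8 FPKM (0.52, adjusted p = 0.112). Both were placed in a list of their own after the data were seen.

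Chaperones of the cytosol and mitochondria were higher with AOS-FMT. *Hsp90aa1*, the inducible form of HSP90, was at 276.4, 233.6 and 352.3 FPKM with AOS dosing against 806.4, 878.3 and 622.8 with AOS-FMT (−1.42 ± 0.302, adjusted p = 0.0448), which is 2.68 times more with AOS-FMT. *Hspe1*, the mitochondrial HSP10 whose promoter is shown above, was at 205.6, 135.7 and 163.95 against 313.5, 331.1 and 286.2 FPKM (−0.90 ± 0.184, adjusted p = 0.0439). *Hspd1*, the HSP60 that works with HSP10, was at 96.5, 89.6 and 116.7 against 174.9, 198.4 and 162.9 FPKM (−0.82, adjusted p = 0.076). In all 3 genes the groups were apart.

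All 13 genes of the heat shock list were lower with AOS dosing (median −1.34), all at an unadjusted p under 0.05, 10 without overlap, and the 2 that passed were *Hsp90aa1* and *Hspe1*. Over all genes tested the shares in the lower direction were 5% at an unadjusted p under 0.05 and 8.21% without overlap. The HSP70 genes *Hspa1b* and *Hspa1a*, near-identical copies whose reads can be split between them, differed most and passed least. *Hspa1b* was at 6.09, 2.48 and 74.4 FPKM against 123.6, 170.2 and 56.8 (−3.12, adjusted p = 0.208), and AOS dosing replicate 3 lay above AOS-FMT replicate 3. *Hsph1*, a nucleotide exchange factor for HSP70, was at 24.5, 19.6 and 59.1 against 157.6, 193.3 and 146.3 FPKM (−2.39, adjusted p = 0.0793). *Bag3*, a co-chaperone of HSP70 in selective autophagy, was at 8.38, 7.43 and 12.2 against 23.9, 26.0 and 18.4 FPKM (−1.22, adjusted p = 0.0658). AOS dosing replicate 3 was the highest of its group in each.

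Some partners of HSP90 and HSP70 were among the called falls. *Dnaja4*, an HSP40 co-chaperone, was at 17.4, 14.04 and 13.3 against 36.01, 37.3 and 27.9 FPKM (−1.12 ± 0.192, adjusted p = 0.022). *Fkbp4* (FKBP52), which carries steroid receptors on HSP90, was at 53.9, 45.0 and 59.1 against 98.3, 108.9 and 87.3 FPKM (−0.89 ± 0.172, adjusted p = 0.0369). *Ahsa1*, which activates the HSP90 ATPase, was at 83.95, 79.5 and 92.7 against 159.4, 173.6 and 147.4 FPKM (−0.90 ± 0.196, adjusted p = 0.0452). These 3 genes were apart between the groups and spread less within them than the HSP70 genes. In a list of 16 HSP90 co-chaperones and chaperonin subunits, added after the data were seen, 15 lay lower (median −0.26) and *Fkbp4*, *Ahsa1* and the chaperonin gene *Cct7* (−0.38) fell.

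The heat shock genes also varied widely in the reference groups. List means were 5.14, 4.86 and 6.13 with AOS dosing and 6.94, 7.23 and 6.63 with AOS-FMT on the log2 scale, while HFD libraries ran from 5.37 to 7.05, controls from 5.53 to 6.87 and control-FMT libraries from 5.96 to 6.75. The 2 lowest of all 18 libraries were AOS dosing replicates 2 and 1. Against the diet alone the list median was −0.81 with AOS dosing and 0.62 with AOS-FMT. Immediate early genes, which are induced quickly when cells are stimulated, had 13 of 13 measured members lower (median −0.13), with 0 past the test in limma and 1 at an unadjusted p under 0.05. Their list means overlapped, at 3.81, 3.83 and 4.71 against 4.16, 4.91 and 3.93, and their part in the heat shock difference was not tested.

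**Figure D4:**
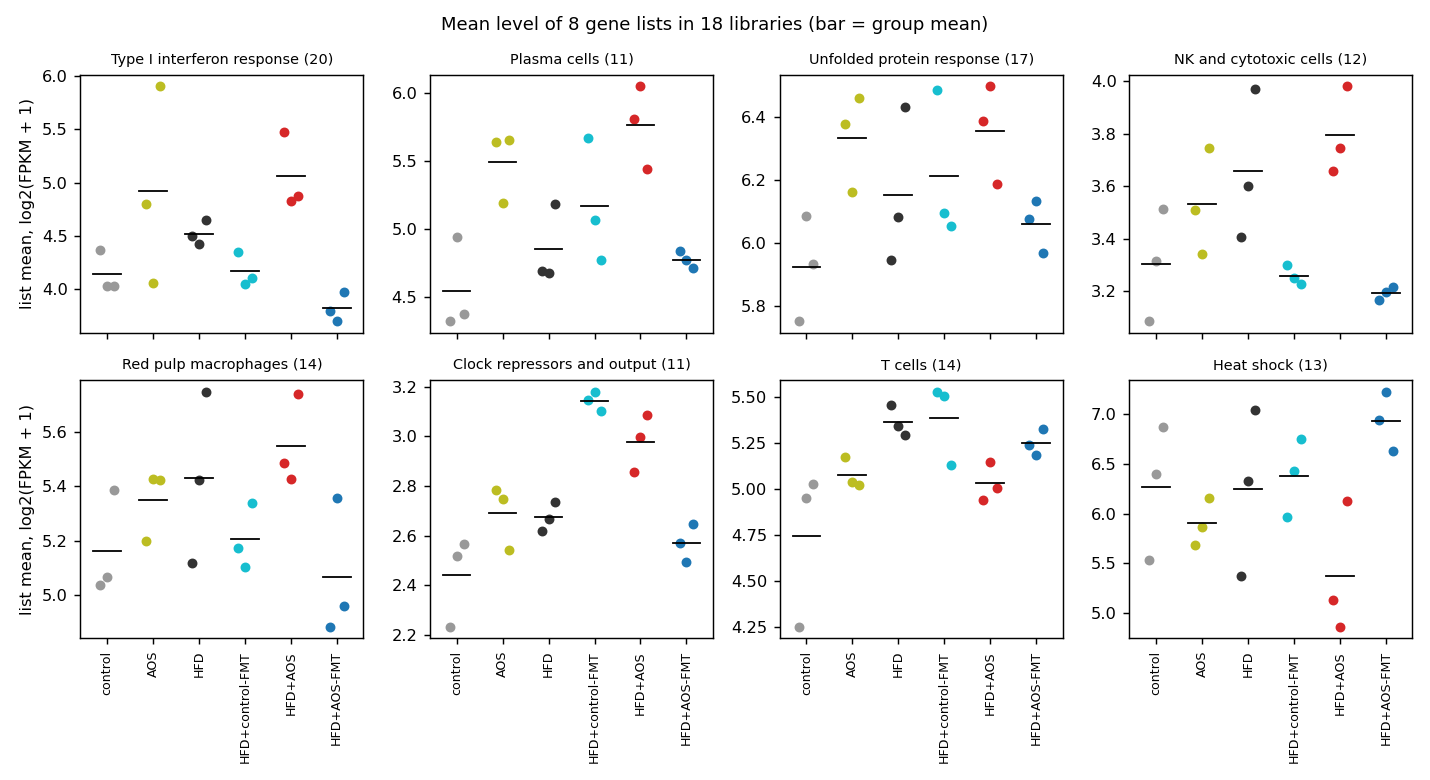
Mean log2(FPKM + 1) of 8 gene lists in each of the 18 libraries, by group on the x axis, with a bar at the group mean; the number of genes is in each title and the y axes do not start at 0. The 8 lists were picked from 55 with the results known, and means of other lists, such as B cells and mitosis, overlap. AOS dosing (red) and AOS-FMT (blue) do not overlap in these 8 panels, the closest libraries being those of the T cell panel (5.15 and 5.18). Heat shock means of the HFD libraries alone run from 5.37 to 7.05.

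The largest called fall was that of *Tnfsf9* (4-1BB ligand), a costimulatory ligand on antigen-presenting cells, at chr17:57105325-57107757. It was at 1.99, 2.45 and 3.96 FPKM with AOS dosing against 13.5, 14.5 and 9.80 with AOS-FMT (−1.86 ± 0.346, adjusted p = 0.0296), 4.51 times more with AOS-FMT. Control-FMT averaged 10.9 ± 1.4, HFD 5.92 ± 2.32 and controls 7.07 ± 4.79 FPKM (SD, n = 3). Its receptor *Tnfrsf9* (CD137) differed by 0.38 in the other direction (adjusted p = 0.415). *Traf4*, an adaptor protein of the TRAF family, was at 13.7, 12.4 and 14.9 against 25.7, 28.1 and 21.7 FPKM (−0.83, adjusted p = 0.0452), and *Relt*, a receptor of the TNF receptor family, fell by 0.45. *Dedd2*, a death effector domain protein, was at 31.5, 29.5 and 41.9 against 86.7, 98.0 and 70.9 FPKM (−1.29, adjusted p = 0.0452).

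Other called genes had roles outside these groups. *Trmo*, a tRNA methyltransferase, was at 11.5, 10.2 and 9.86 against 30.7, 20.02 and 17.9 FPKM (−1.02, adjusted p = 0.022), and *Acrbp*, the acrosin-binding protein, at 10.3, 10.9 and 14.9 against 19.97, 20.4 and 20.6 (−0.73, adjusted p = 0.0442). In the other direction, *Pgam2*, the muscle form of phosphoglycerate mutase, was at 6.97, 6.42 and 4.61 against 1.24, 1.44 and 1.24 FPKM (1.59 ± 0.33, adjusted p = 0.0441). *Pon3*, a lactonase bound to HDL, was at 27.1, 36.95 and 23.3 against 15.1, 11.4 and 10.5 FPKM (1.17, adjusted p = 0.0452). *Alpl*, tissue-nonspecific alkaline phosphatase, was at 7.35, 6.75 and 5.14 against 2.62, 1.90 and 2.70 FPKM (1.12, adjusted p = 0.0444). The lowest AOS dosing library was 3.20 times the highest AOS-FMT library for *Pgam2*, 1.90 times for *Alpl* and 1.54 times for *Pon3*.

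Of 56 gene lists on cell types and pathways, 55 had at least 3 members measured and 8 had at least 1 member called. Of the 119 called genes 14 were in these 56 lists, which leave out the 4 lists added after the data were seen. The 56 lists hold 657 measured genes, and of all 12969 genes tested 0.918% were called. The lists of oxidative phosphorylation (median 0.05), DNA replication (0.04), mitosis (0.03), ribosomal proteins (−0.05) and Nrf2 targets (0.04) had medians within 0.1 of 0 on the log2 scale and no member past the test. Red cell lists lay lower by 0.22 to 0.47 for haem synthesis, red cell membrane, erythroid regulators and haemoglobin, with none past the test and groups that mostly overlapped. Mature neutrophil genes (−0.23) and granule precursors (−0.33) lay lower with no member at an unadjusted p under 0.05. All 15 megakaryocyte and platelet genes lay higher (median 0.26), beside 55.4% of all genes tested, and 1 of them had an unadjusted p under 0.05. MHC class II genes had a median of −0.08, and *H2-Eb1*, of that list, was at 313.7, 312.2 and 393.4 against 46.8, 102 and 332.9 FPKM with overlapping groups (adjusted p = 0.419).

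**Figure D5:**
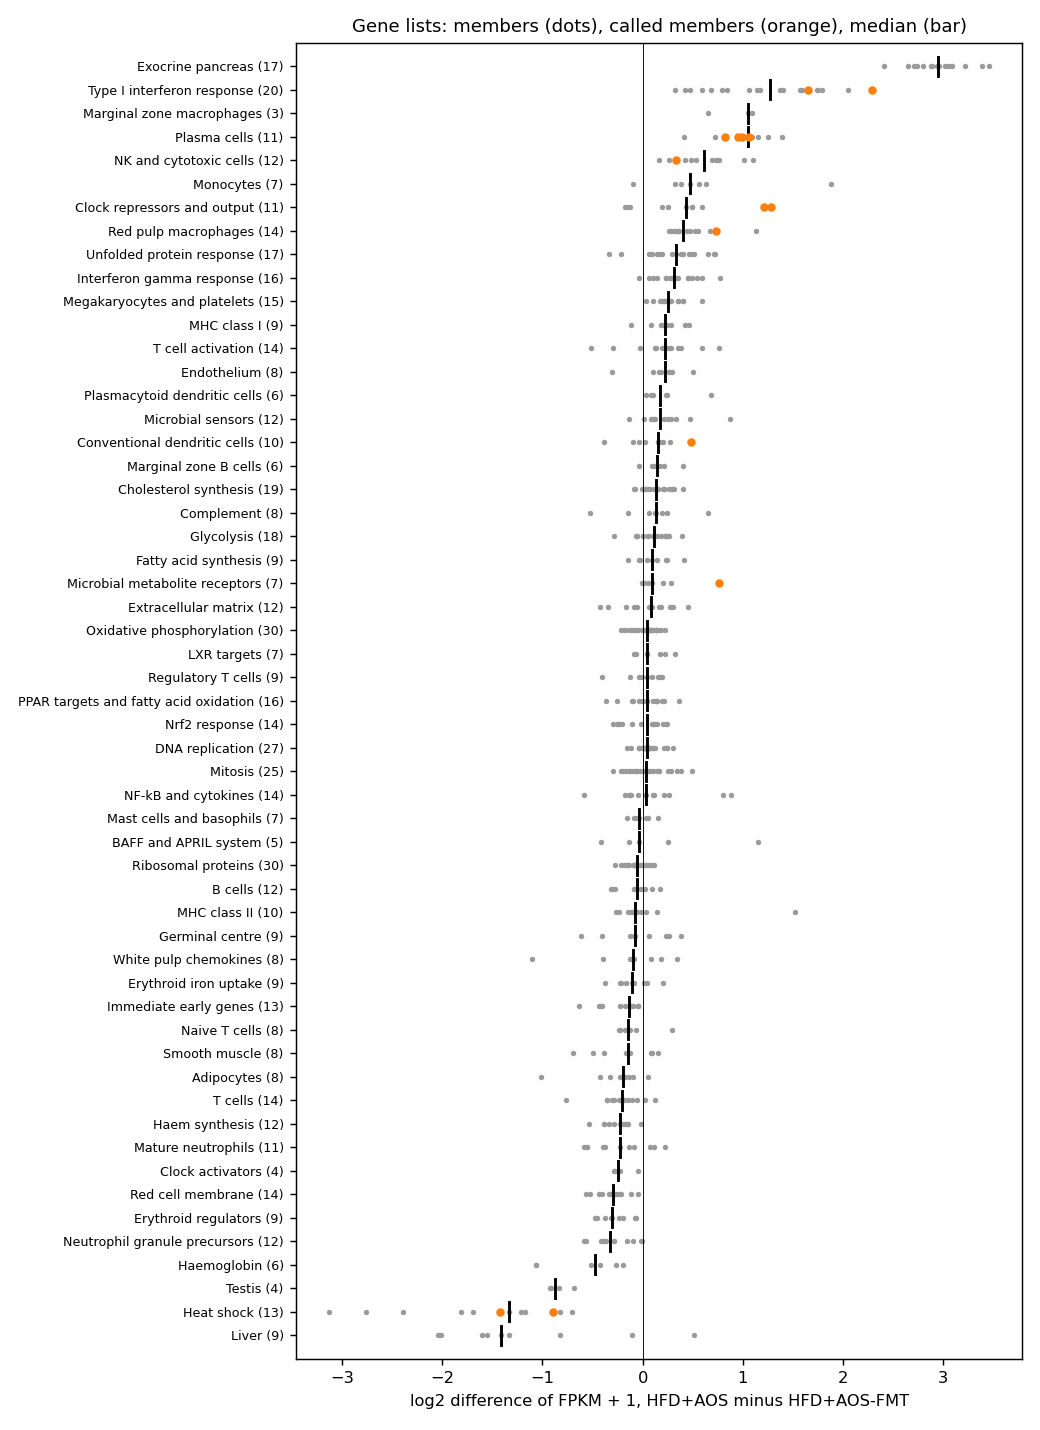
Difference between AOS dosing and AOS-FMT on the log2(FPKM + 1) scale for the measured members of 55 gene lists, sorted by median: each dot is a gene, orange dots are called genes and the black bar is the median of the list. Heat shock (−1.34) lies at the lower end near liver (−1.41). At the upper end, below exocrine pancreas (2.95), lie type I interferon (1.27), marginal zone macrophages (1.06, 3 genes) and plasma cells (1.05). Exocrine pancreas and marginal zone macrophages have no called gene.

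Each group was also compared with the diet alone. With limma, 0 genes passed between AOS dosing and HFD (lowest adjusted p = 0.0608, and 1947 with an unadjusted p below 0.05) and 0 between AOS-FMT and HFD (lowest adjusted p = 0.103, and 1770), and these comparisons share the 3 HFD libraries. Against controls 271 genes (2.09%) passed with AOS dosing and 0 with AOS-FMT (lowest adjusted p = 0.209, and 1501 with an unadjusted p below 0.05), again with shared control libraries. Both groups differ from controls by the diet as well, and 357 of 12969 genes passed between the diet alone and controls. The difference between these counts was not tested. For the called genes, the mean of the diet alone lay between the group means in 92 of the 93 higher and 22 of the 26 lower genes. The mean of control-FMT lay between them in 90 and 24. These genes were chosen for a wide gap between the groups, so another mean falling inside that gap is what the choice makes likely. Controls lay between the groups in 64 of the 93 higher genes and below both in the other 29, and between them in 25 of the 26 lower genes.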

How the data were processed

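The data are 18 spleen RNA-seq libraries, 3 for each of 6 groups. Bowtie 0.12.2 and the mm10 build are named per the submitters' processing notes. The authors deposited 1 table of values with 2 decimals, read here as FPKM because value times transcript length sums almost equally in all libraries: the coefficient of variation was 0.785%, and 7.55% for plain column totals (97.1% of rows had a length). For the unit, the counting, the strand and the annotation, the sources used here give nothing. Depth is unknown, so no counting error accompanies any value. Columns were matched to the labels by group code and number.

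All 18 libraries entered a single limma model (limma 3.58.1 under R 4.3.3, with statmod 1.5.0) of log2(FPKM + 1), with a variance trend, robust moderation and 12 residual degrees of freedom. The spread is therefore pooled over 6 groups. Rows entered if any group averaged 1 FPKM or more (12969 rows), and Benjamini-Hochberg adjustment ran over these, with a threshold of 0.05. Differences on this scale understate the change of low genes. The model was also run on simulated data. Genes there were drawn independently, with the same spread in every group, so that run does not give the error rate in these data. Gene lists were described by counts and medians, with no test. Positions came from GENCODE vM21 on GRCm38 and promoters from RefSeq on GRCm38.p6. Tables and plots were made in Python 3.11.15 with pandas 2.3.3, numpy 2.4.6, matplotlib 3.10.9 and scipy 1.17.1.

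The members and gene lists were chosen with earlier results of these data known, and 4 lists were added after the values were seen. Named by rule were the 10 largest rises and 10 largest falls past the threshold, provided that the groups did not overlap and the higher mean reached 2 FPKM. Antigen receptor segments, provisional symbols and symbols turned into dates were not eligible. From each list the first 2 members at 1 FPKM or more could be named, as could the 2 with the smallest p where at least 3 members had an unadjusted p under 0.05 in 1 direction. Other genes named were chosen after their values were seen. Alternatives were the 6 libraries alone, a replicate block, other pseudocounts, filters, scalings and variance settings, and each library left out.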

Additional observations from a re-analysis of the deposited data

How the results depend on the processing

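Results were recomputed under 28 alternatives, and the 119 called genes kept their direction wherever they were tested. The 93 higher calls became 21 with a replicate block, 47 with no filter and 59 without trend and robust variance, and 0 to 152 when 1 library was left out. The 26 lower calls became 48 in the 6 libraries alone, 6 with the replicate block, 11 with no filter, 82 after scaling by median ratios, 46 after quantile normalization and 11 without trend and robust variance, and 0 to 63 when 1 library was left out. Residuals of libraries with the same replicate number correlated at 0.481, 0.448 and 0.0192. AOS dosing replicates 1 and 2 each correlated best with the AOS-FMT library of the same number. AOS dosing replicate 3 correlated best with AOS-FMT replicate 2 (0.232). The labels name no batch or pairing, and whether libraries of the same number share one was not tested. Under the replicate block 27 genes passed, 26 of them among the 119. When 1 library was left out, list medians ranged from 0.453 to 0.691 for NK and cytotoxic cells, from 0.0803 to 0.197 for conventional dendritic cells, from 0.350 to 0.555 for clock repressors and outputs, and from 0.0538 to 0.207 for microbial metabolite receptors. Among single genes, none of them called, *Thra* went to −0.00453 after scaling by median ratios and −0.0189 after quantile normalization, and with 1 library left out its difference ran from −0.0754 to 0.127, that of *Catsper2* from −0.112 to 0.207 and that of *Cd3e* from −0.120 to 0.0142. The cause of these differences was not tested. With no filter, 18925 genes entered the fit and the adjustment. The unknown depth limits what can be said of genes near 1 FPKM.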

Other observations

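Enzymes and transporters outside the gene groups of the report were also among the 119 called genes, singled out after their values were seen. *Paox*, an oxidase of polyamines, was at 10.8, 13.03 and 10.4 FPKM with AOS dosing against 7.70, 7.87 and 7.13 with AOS-FMT (log2 difference 0.53 ± 0.0826 SE, limma adjusted p = 0.0179). *Got2*, the mitochondrial aspartate aminotransferase, was at 64.8, 60.95 and 55.4 against 47.4, 44.9 and 45.7 FPKM (0.38, adjusted p = 0.0434). *Slc6a6*, the taurine transporter, was at 20.5, 24.5 and 27.4 against 17.03, 17.5 and 18.7 FPKM (0.42, adjusted p = 0.0452). *Slc20a1*, a phosphate transporter, lay the other way, at 58.2, 58.1 and 58.5 against 78.99, 72.9 and 71.3 FPKM (−0.35, adjusted p = 0.022). *Lcat*, which esterifies cholesterol on HDL, was at 2.28, 2.61 and 2.08 against 4.09, 5.15 and 3.23 FPKM (−0.62, adjusted p = 0.0466).

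The called falls also held the following 3 genes, again picked after their values were seen and with no list or count behind them. *Skp1a*, a subunit of SCF ubiquitin ligases, was at 92.97, 95.95 and 91.95 against 117.3, 120.6 and 112.2 FPKM (−0.31, limma adjusted p = 0.0496). *Ube2f*, which conjugates the ubiquitin-like protein NEDD8, was at 44.2, 46.2 and 43.6 against 59.2, 60.6 and 55.6 FPKM (−0.38, adjusted p = 0.0296). *Rnf11*, a RING finger protein, was at 34.0, 36.3 and 30.8 against 47.4, 49.2 and 45.3 FPKM (−0.48, adjusted p = 0.022).

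Of the called genes, the following 2 are tied to p53 and were picked in the same way. *Trp53inp1*, a p53 target, was at 60.6, 85.8 and 59.1 FPKM with AOS dosing against 33.9, 33.6 and 38.7 with AOS-FMT (0.92 ± 0.163 SE, limma adjusted p = 0.022). *Ppm1d*, the phosphatase WIP1 that dampens p53 signalling, was at 18.1, 16.6 and 15.5 against 22.2, 21.4 and 20.2 FPKM (−0.33, adjusted p = 0.0478).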
